A study of Mus musculus with 9 samples.

Results

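The Ly6 genes encode small, cysteine-rich proteins that are held on the outer face of the cell membrane by a glycosylphosphatidylinositol (GPI) anchor. Most of the mouse family lies in 1 cluster on chromosome 15, and its members are standard surface markers of blood cells: Ly6C of monocytes, Ly6G of neutrophils and Sca-1, the product of Ly6a, of stem and progenitor cells. Several members are induced by interferons. In injured liver, blood monocytes rich in Ly6C enter the tissue and lose Ly6C as they turn into macrophages.

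Described here are 7 genes of this family, Ly6a, Ly6a2, Ly6c1, Ly6c2, Ly6e, Ly6g and Ly6i, out of 45777 genes in the deposited tables. They were chosen by name, from family membership, after levels of these same samples had been seen: Ly6a2 and Ly6c2 were among the genes lower after one of the treatments. The values of that comparison are therefore given as a description. All 7 were found, and all 7 reached 1 TPM, a unit of transcript abundance per length, in all 9 samples, Ly6g included.

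RNA was sequenced in bulk from CD11b+ cells, the myeloid cells of a dissociated mouse liver, 48 hours after an intraperitoneal overdose of acetaminophen (APAP), which causes acute liver failure. All 9 samples had APAP. The PBS group (n = 3) had no vesicles, the HEK-EV group (n = 3) had HEK cell derived SIRP-EV and the MSC-EV group (n = 3) had MSC derived SIRP-EV, both kinds of extracellular vesicle given intravenously 8 hours after APAP. HEK cells are a human embryonic kidney line, MSC usually stands for mesenchymal stem or stromal cells, and the labels do not spell out SIRP. The labels used here give no strain, sex or age, no vesicle without SIRP and no mouse without APAP. They do not say that the samples of a group came from separate animals, so the p-values below measure only the spread between these samples.

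The number of reads behind each library is unknown, since no counts are in the files, and counting errors could not be given. Relative depth was read from coverage divided by FPKM, a quotient that grows with sequencing: it was 5.28 to 6.32 after PBS, 6.25 to 6.47 after HEK-EV and 6.58 to 6.84 after MSC-EV, lowest in PBS replicate 1. Transcripts of pancreatic acinar cells stood apart in HEK-EV replicate 2 and MSC-EV replicate 3, where 18 acinar genes summed to 1127 and 3170 TPM, and also lay above the rest in MSC-EV replicate 1 (151 TPM) and HEK-EV replicate 1 (39.3 TPM), against 13.3 to 15.4 TPM in the other 5 samples. A term for acinar transcripts, where one is used below, marks these 4 libraries, in which the median acinar gene exceeded 0.3 TPM. No PBS library is among them, so that term cannot be fully told apart from vesicles in comparisons with PBS. Itgam, which encodes CD11b, was at 289 to 377 TPM after PBS, 339 to 434 after HEK-EV and 196 to 255 after MSC-EV.

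In TPM, which is a level per transcript length, the 7 genes covered a wide range. Ly6e and Ly6c2 were the most abundant in every sample, followed by Ly6a, Ly6a2, Ly6c1 and Ly6i in the order of their means over 9 samples, and Ly6g was near the limit of 1 TPM used to filter genes. The neighbours Ly6a and Ly6a2 overlapped in their PBS levels, as did Ly6a2 and Ly6c1, and Ly6i stood above Ly6c1 and Ly6a2 in MSC-EV replicate 1, whereas Ly6e and Ly6c2 did not overlap each other or the rest in any group. Ly6e made up 58.5% to 76.2% of the summed TPM of the 7. That sum was 2757, 4386 and 4286 TPM after PBS, 3788, 3301 and 3225 after HEK-EV and 2404, 2254 and 2195 after MSC-EV. The sums of the MSC-EV samples were below all other sums, and PBS replicate 1 was the lowest of the remaining 6.

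**Figure D1:**
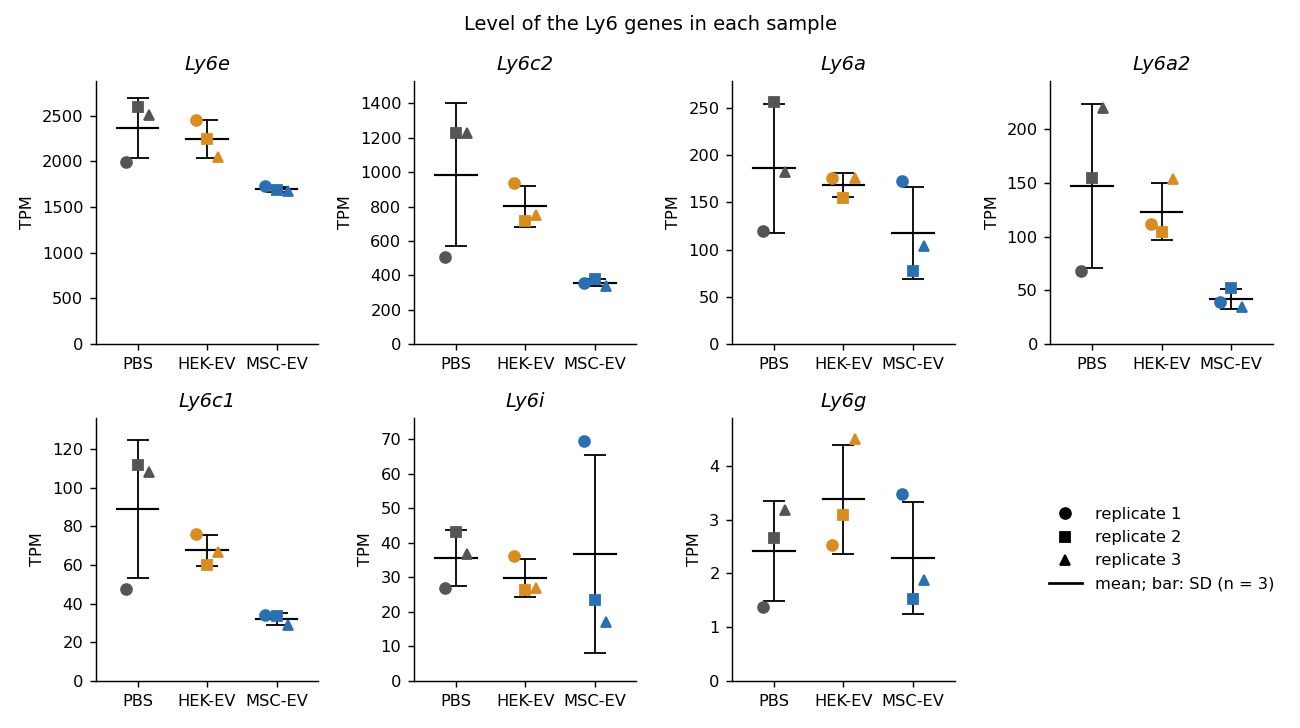
Level in TPM (vertical axes from 0) of the 7 Ly6 genes in each of the 9 samples, with 1 panel per gene and a symbol per replicate; lines are group means and bars are SD (n = 3). The MSC-EV samples lie below all PBS and HEK-EV samples for Ly6e, Ly6c2, Ly6a2 and Ly6c1, and MSC-EV replicate 1 is the highest of all samples for Ly6i at 69.6 TPM.

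The 7 genes span chr15:74955016-75159128 in the coordinates of the files (mm10). Within it lie 12 genes of the files, of which 8 passed the filter: the 7 and Gm5960. Their relatives Ly6f, Ly6h and Ly6l, farther along the cluster, were listed at 0 in every sample. Ly6a and Ly6i overlap Gm28068 on the opposite strand, which reached at most 0.94 TPM, and no gene of the files overlaps the other 5.

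**Figure D2:**
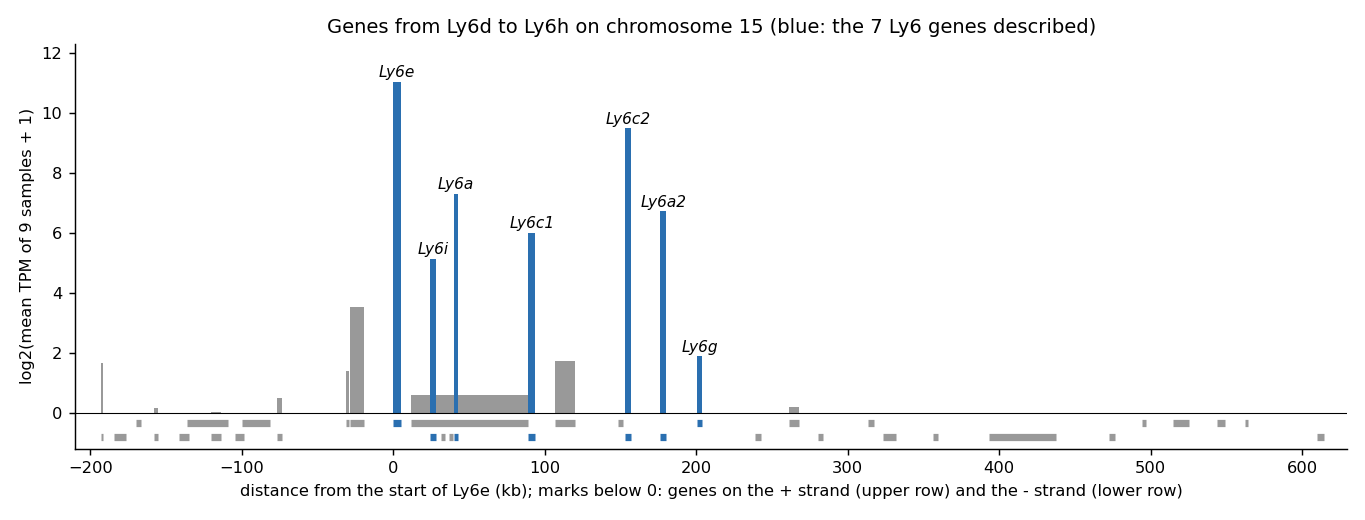
Genes from Ly6d to Ly6h, drawn by their distance in kb from the start of Ly6e; bar height is log2 of the mean TPM of 9 samples plus 1, and marks under the axis show the strand. The 7 Ly6 genes (blue) are the tallest bars except that an unnamed neighbour before Ly6e stands above Ly6g.

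Ly6c2 and Ly6c1 encode the Ly6C antigen that separates inflammatory monocytes, rich in it, from patrolling monocytes, which carry little. Ly6c2 (gene ID 100041546, chr15:75108161-75112066, minus strand) was at 504, 1226 and 1229 TPM after PBS, 936, 714 and 753 after HEK-EV and 359, 381 and 337 after MSC-EV. All MSC-EV samples were lower than every other sample, and PBS replicate 1 lay below the HEK-EV samples. The group means were 986 ± 418, 801 ± 118 and 359 ± 22 TPM (SD, n = 3 each). On the log2(TPM + 1) scale, which understates changes of low genes, the MSC-EV mean was lower than PBS by -1.35 (SE 0.295), or 2.54-fold, and lower than HEK-EV by -1.15 (SE 0.295).

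Ly6c1 (gene ID 17067, chr15:75044018-75048920, minus strand) followed Ly6c2 at a lower level. It was at 47.7, 112 and 108 TPM after PBS, 76.2, 60.1 and 66.6 after HEK-EV and 34.3, 33.5 and 28.7 after MSC-EV. Again the MSC-EV samples did not overlap the others, and means were 89.0 ± 35.9, 67.6 ± 8.12 and 32.1 ± 3.0 TPM. The differences were -1.35 (SE 0.275) against PBS and -1.05 (SE 0.275) against HEK-EV. In every sample Ly6c1 held 7.53% to 8.72% of the sum of both genes, so that share differed little between groups: 8.35 ± 0.28% in PBS, 7.80 ± 0.30% in HEK-EV and 8.22 ± 0.45% in MSC-EV (SD, n = 3).

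Reads of this pair are hard to tell apart. Their GENCODE M21 transcripts were 97.6% identical over 822 aligned bases, and 15.3% of the 100-base windows of the Ly6c1 transcript and 15.8% of those of Ly6c2 occurred unchanged in the other; of 75-base windows, 23.2% and 21.9% occurred in another gene of the family. How reads that match both genes were assigned is not given in the sources used here, so the split between them is uncertain, while their sum is less affected. All other pairs among the 6 genes without Ly6e were 79.5% to 85.6% identical, and 0% of the 100-base windows of Ly6a, Ly6a2, Ly6i, Ly6g or Ly6e occurred in the transcript of another gene. At 75 bases this was 2.38% for Ly6a, 1.52% for Ly6a2 and 0.56% for Ly6i, and the read length is not known. Ly6e shared only 16 to 31 aligned bases with any of them.

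Ly6a2, known in GENCODE M21 as I830127L07Rik and listed there as a processed transcript, lies next to Ly6c2 in the cluster (gene ID 546643, chr15:75131292-75135194, minus strand). Its level was 67.6, 154 and 220 TPM after PBS, 112, 104 and 154 after HEK-EV and 39.1, 52.0 and 34.6 after MSC-EV. The MSC-EV samples were below all others, with means of 147 ± 76.3, 123 ± 26.7 and 41.9 ± 9.02 TPM. Of the 7 genes it had the largest difference in the MSC-EV group, -1.65 (SE 0.365), or 3.15-fold, against PBS and -1.53 (SE 0.365) against HEK-EV. The sign held in every alternative analysis. When the TPM of Ly6a, Ly6a2 and Ly6i were summed as near relatives, the difference of the sum was -0.89 against PBS and -0.76 against HEK-EV. That sum did not pass in either comparison (adjusted p = 0.12 and 0.172 in limma). It blends the 3 genes, of which Ly6a had the highest mean, and does not measure how many reads they share. The 1.52% of 75-base windows that Ly6a2 shared were with Gm5960, not with Ly6a or Ly6i.

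Promoters are shown for Ly6c1, Ly6c2 and Ly6a2, whose levels went together over the samples, and for Ly6g, which did not follow them. RefSeq promoter windows (GRCm38.p6) were at hand for only these 4 of the 7 genes, which is why they are shown. Each runs from 250 bases before to 50 bases after the most upstream start in that table, written along the strand of the gene. That start is the first base of the gene in the files for Ly6g but lies 83 bases downstream of it for Ly6c1, 95 for Ly6c2 and 66 for Ly6a2. Ly6c1 is chr15:75048788-75049087 (minus strand), Ly6c2 is chr15:75111922-75112221 (minus), Ly6a2 is chr15:75135079-75135378 (minus) and Ly6g is chr15:75155011-75155310 (plus). Capitals mark matches to GAGGAAGT, the core of sites for PU.1, a transcription factor of myeloid cells, searched on both strands:
Ly6c1: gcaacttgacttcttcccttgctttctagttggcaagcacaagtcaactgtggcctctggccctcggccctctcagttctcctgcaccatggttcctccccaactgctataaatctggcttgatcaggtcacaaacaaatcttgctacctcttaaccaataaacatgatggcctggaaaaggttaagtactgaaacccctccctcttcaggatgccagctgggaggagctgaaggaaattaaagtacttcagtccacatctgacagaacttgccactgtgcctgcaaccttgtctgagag
Ly6c2: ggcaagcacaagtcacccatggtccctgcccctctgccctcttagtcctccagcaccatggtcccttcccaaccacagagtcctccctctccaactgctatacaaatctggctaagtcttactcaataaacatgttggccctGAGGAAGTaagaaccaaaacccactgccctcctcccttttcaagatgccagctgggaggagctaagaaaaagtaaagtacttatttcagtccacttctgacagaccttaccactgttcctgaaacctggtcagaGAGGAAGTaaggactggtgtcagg
Ly6a2: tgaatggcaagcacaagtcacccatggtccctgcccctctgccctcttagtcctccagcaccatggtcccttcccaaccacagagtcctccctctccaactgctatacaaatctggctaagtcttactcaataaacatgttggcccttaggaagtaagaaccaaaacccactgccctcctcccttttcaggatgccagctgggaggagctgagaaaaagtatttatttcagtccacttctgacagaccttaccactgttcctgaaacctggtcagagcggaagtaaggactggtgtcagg
Ly6g: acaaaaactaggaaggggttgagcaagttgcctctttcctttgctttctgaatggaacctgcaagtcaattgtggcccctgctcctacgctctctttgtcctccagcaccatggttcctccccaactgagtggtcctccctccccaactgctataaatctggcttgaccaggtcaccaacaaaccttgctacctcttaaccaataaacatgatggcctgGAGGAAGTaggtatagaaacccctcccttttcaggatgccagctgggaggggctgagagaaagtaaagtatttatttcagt

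The Ly6c2 window held 2 matches, at -108 and 26 bases from the start of the table, or -13 and 121 from the first base in the files. The Ly6g window held 1 at -31, and the Ly6c1 and Ly6a2 windows held none. The count depends on the start chosen: the table has a second, more downstream window for Ly6c1, Ly6c2 and Ly6g, and these held 1, 2 and 2 matches, the one of Ly6c1 at 130 bases after the first base in the files. These letters occur in 3.11% of 32544 RefSeq promoter windows of this length. The windows of Ly6a2 and Ly6c2 were 97.0% identical over 300 aligned positions, against 83.9% for their transcripts. Those of Ly6c1 and Ly6c2 were 74.8% identical over 286 aligned positions. Of 4 substitutions between the Ly6c2 and Ly6a2 windows, 2 fell in the matches, G143T and A278C, counted from 1 at the first base of the Ly6c2 window with the Ly6c2 base first. None of the 4 windows held GAAANNGAA, the core of the interferon-stimulated response element (8.53% of windows), or TTCNNNGAA, the gamma-activated sequence (8.33%), on either strand. A match is a description of letters only, and the differing windows say nothing of binding in these cells.

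Ly6e, an interferon-induced member found on many blood cells and known to restrict the entry of some viruses, was the most abundant gene of the family (gene ID 17069, chr15:74955016-74959905, plus strand). It was at 1989, 2593 and 2507 TPM after PBS, 2450, 2239 and 2044 after HEK-EV and 1726, 1686 and 1673 after MSC-EV. The groups did not overlap between MSC-EV and the rest, but the distance was small: PBS replicate 1 was 1989 TPM against 1726 in MSC-EV replicate 1. Means were 2363 ± 327, 2245 ± 203 and 1695 ± 28.1 TPM, and the differences were -0.47 (SE 0.106), or 1.38-fold, against PBS and -0.40 (SE 0.106) against HEK-EV.

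Ly6a encodes Sca-1, present on stem and progenitor cells, on endothelium and, after interferon, on many leukocytes (gene ID 110454, chr15:74994877-74998031, minus strand). Its level was 120, 255 and 182 TPM after PBS, 175, 154 and 176 after HEK-EV and 172, 77.7 and 104 after MSC-EV. The groups overlapped, since MSC-EV replicate 1 was as high as the HEK-EV samples. Means were 186 ± 68.0, 168 ± 12.5 and 118 ± 48.8 TPM, with differences of -0.67 (95% interval -1.35 to 0.02) against PBS and -0.59 (-1.27 to 0.10) against HEK-EV. Without MSC-EV replicate 1 they were -0.98 and -0.90, without MSC-EV replicate 2 -0.41 and -0.33, and without PBS replicate 2 the difference from PBS was -0.40.

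Ly6i, a close relative of Ly6a expressed by myeloid cells, was the most variable member in the MSC-EV group (gene ID 57248, chr15:74979534-74983434, minus strand). It was at 26.9, 43.1 and 36.8 TPM after PBS, 36.1, 26.4 and 26.8 after HEK-EV and 69.6, 23.4 and 17.1 after MSC-EV. One MSC-EV sample was thus the highest of all 9 and the other two the lowest. Means of 35.6 ± 8.16, 29.8 ± 5.50 and 36.7 ± 28.7 TPM differed by -0.19 (SE 0.423) against PBS and 0.04 (SE 0.423) against HEK-EV, by -0.78 and -0.54 without MSC-EV replicate 1, and by 0.20 and 0.44, with the opposite sign, without MSC-EV replicate 3.

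Ly6g encodes the neutrophil marker Ly6G (gene ID 546644, chr15:75155261-75159128, plus strand). Its level was 1.38, 2.66 and 3.18 TPM after PBS, 2.53, 3.09 and 4.50 after HEK-EV and 3.48, 1.51 and 1.88 after MSC-EV, with all groups overlapping. Means were 2.41 ± 0.93, 3.37 ± 1.01 and 2.29 ± 1.04 TPM, and the differences were -0.06 (SE 0.277) against PBS, with a sign that changed between samples left out, and -0.43 (SE 0.277) against HEK-EV. Other genes of neutrophils covered a wide range in the same libraries: the receptor gene Csf3r was at 439 to 658 TPM, Cxcr2 at 76.8 to 154 and S100a8, which inflammatory monocytes also express, at 770 to 2096. Among genes of granule proteins, Lcn2 was at 53.1 to 353 TPM, Mmp8 at 66.5 to 154, Mmp9 at 88.6 to 165 and Ngp at 6.35 to 29.2, while Ltf, at 1.45 to 7.43, and Camp, at 0.70 to 5.27, overlapped the range of Ly6g, and Mpo and Elane stayed below 1 TPM.

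Over all 13820 genes tested with limma, 3.25% were lower in MSC-EV than in PBS at an adjusted p under 0.05 and 1.86% were higher. Of the 7 Ly6 genes, 4 were lower by that criterion (Ly6a2, Ly6c1, Ly6c2 and Ly6e) and 0 were higher. The same 4 had MSC-EV samples below all PBS samples, a pattern shown by 14.9% of all genes. The median difference of the 7 was -0.67, against 0.01 over all genes. Since the genes were chosen with this comparison known, nothing is read from these counts. The count was also not stable: it was 0 without PBS replicate 2 or 3, without HEK-EV replicate 2, or without any one MSC-EV sample, and 0 genes of the whole table passed without HEK-EV replicate 2 and MSC-EV replicate 3 together, the libraries richest in acinar transcripts. In that last fit the differences were -1.53 for Ly6a2, -1.27 for Ly6c1, -1.30 for Ly6c2 and -0.46 for Ly6e, close to those over all samples.

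The comparison of MSC-EV with HEK-EV, which asks whether the source of the vesicles mattered, uses the same MSC-EV samples and is not independent of the first. In it 4.40% of all genes were lower and 1.51% higher, and of the 7 genes only Ly6a2 was lower by that criterion. In 4 of the 7, again Ly6a2, Ly6c1, Ly6c2 and Ly6e, the MSC-EV samples lay below all HEK-EV samples, as they did for 17.5% of all genes. The median difference of the 7 was -0.59, against -0.02 over all genes. The count was 4 without PBS replicate 1, 2 without PBS replicate 3, and 0 without PBS replicate 2 or without any one HEK-EV or MSC-EV sample.

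HEK-EV against PBS asks whether vesicles from the kidney line changed these genes, and no difference was detected for any of the 7. Differences ran from -0.30 for Ly6c1 (95% interval -0.92 to 0.32) to 0.38 for Ly6g (-0.25 to 1.0), and limma gave an adjusted p = 0.999 for each of the 7. Over all genes 0% passed in the lower direction and 0% in the higher, with 495 genes at an unadjusted p under 0.05, and 0 of the 7 Ly6 genes among them. HEK-EV samples lay below all PBS samples for 0 of the 7, against 2.29% of all genes. For Ly6c2 the difference was -0.20 (-0.86 to 0.47). PBS replicate 1 was the lowest PBS sample for all 7 genes and the one of lowest depth. Without it the differences of Ly6c1, Ly6c2 and Ly6a2 were -0.70, -0.63 and -0.60, with adjusted p = 0.563, 0.563 and 0.580 in limma, and without PBS replicate 3 they were -0.12, 0.02 and 0.25.

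**Figure D3:**
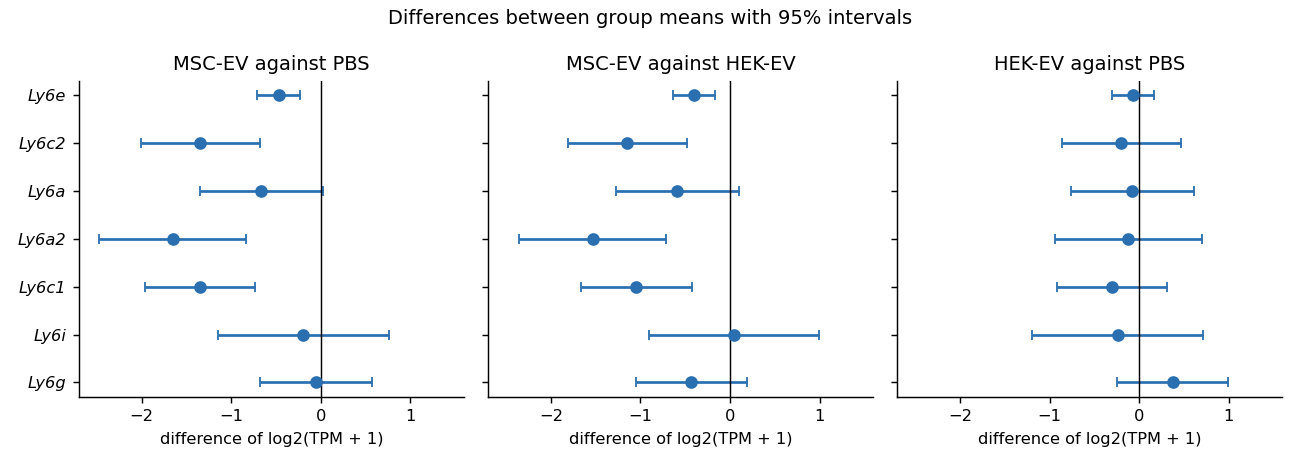
Differences between group means of log2(TPM + 1) for the 7 Ly6 genes in the 3 comparisons; points are estimates of limma and bars are 95% intervals. Ly6a2, Ly6c1, Ly6c2 and Ly6e lie below 0 in both comparisons of MSC-EV, and every interval of HEK-EV against PBS includes 0.

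Depth moved with the groups. Depth and group cannot be fully told apart, since coverage divided by FPKM was higher in each MSC-EV library than in any other library. With that quotient as a covariate the differences from PBS grew to -2.86 for Ly6a2, -2.19 for Ly6c1, -2.28 for Ly6c2 and -0.72 for Ly6e. With the same covariate the differences of HEK-EV from PBS were -0.80 for Ly6a2, -0.78 for Ly6c1 and -0.73 for Ly6c2, each at an adjusted p = 0.378 in limma, against -0.12, -0.30 and -0.20 without it. In bulk samples fewer cells of a type and less RNA per cell cannot be told apart either.

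Other genes of the Ly6/uPAR superfamily, which share the fold, were mostly silent. Of 40 listed, 39 were in the files, 20 were at 0 in all samples and 7 passed the filter. Among those 7, 5 had lower means in MSC-EV than in PBS. In 4 the MSC-EV samples lay below all PBS samples, against 14.9% of all genes. The limma test was passed by 1 as lower, against 3.25% of all genes: Cd177, a GPI-anchored protein of neutrophils. The median difference of these 7 was -0.32. Cd177 was at 56.2, 75.1 and 78.2 TPM after PBS, 60.9, 60.7 and 77.7 after HEK-EV and 33.4, 44.2 and 43.7 after MSC-EV, which lay below all the rest. It was lower against PBS by -0.77 (SE 0.156, adjusted p = 0.0310 in limma) and against HEK-EV by -0.70 (SE 0.156, adjusted p = 0.0341). Over the alternatives its adjusted p against PBS ran from 0.00568 to 0.15, and the count of 1 became 0 without PBS replicate 2 or 3, HEK-EV replicate 2 or MSC-EV replicate 1 or 2, and 2 without HEK-EV replicate 1. Against HEK-EV its adjusted p ran from 0.00969 to 0.122 and was under 0.05 in 9 of 20 alternatives.

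Of the remaining 6, Gpihbp1, a protein of capillary endothelium, differed from PBS by -1.13 (SE 0.387, adjusted p = 0.117), with MSC-EV samples at 12.9 to 26.6 TPM below PBS samples at 40.2 to 45.3. The HEK-EV samples, at 18.7 to 65.0 TPM, overlapped both of these groups. Ly6d, a marker of lymphoid progenitors at the edge of the cluster, was at 1.38 to 1.64 TPM in the MSC-EV samples and 1.93 to 3.42 in the others. It differed from HEK-EV by -0.57 (SE 0.144, adjusted p = 0.0501), just outside the threshold. Plaur, the urokinase receptor, was at 144 to 224 TPM over all samples and overlapped between groups. Of 30 genes that build and attach GPI anchors, 0 passed the limma test in either direction against PBS, with a median of 0.04. An unadjusted p under 0.05 was found for 3, against 3184 of all 13820 genes. Pigx was nearest at -0.26 (adjusted p = 0.107), then Pigf at -0.25 (adjusted p = 0.117). Without PBS replicate 1, 2 of the 30 passed.

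The genes whose profiles were most like each Ly6 gene were found as the smallest root mean square difference of log2(TPM + 1), each gene centred on its own mean, over 9 samples and among 9421 genes, a search that left out the 7 Ly6 genes themselves and unnamed genes. Within the family the nearest were Ly6c1 and Ly6c2, at 0.0738, then Ly6a2 and Ly6c2 at 0.294. Outside the family Plac8, a gene of inflammatory monocytes, was nearest to Ly6c2, Ly6c1 and Ly6a2, at a difference of 0.058, 0.059 and 0.285. It was at 1460, 3589 and 3744 TPM after PBS, 2516, 2009 and 2158 after HEK-EV and 1079, 1163 and 939 after MSC-EV, so PBS replicate 1 was again low. Next for Ly6c2 were Ms4a4c (0.187) and Ifitm6 (0.193), for Ly6c1 Ms4a4c (0.175) and Ms4a4b (0.184), and for Ly6a2 Slfn4 (0.297) and Ifitm6 (0.331). The agreement of Ly6c1 with Ly6c2 is not independent of the reads they share.

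Ly6e was most like Prkcd, which encodes a protein kinase C, Tlr7, a sensor of RNA, and the leukocyte surface gene Cd52, at 0.050 to 0.052. Such distances tend to be small for a gene that varies little, so they do not rank the Ly6 genes against each other. The root mean square of the centred profile itself was 0.238 for Ly6e, 0.697 for Ly6c2 and 0.879 for Ly6a2. Ly6g was most like Socs3, an inhibitor of cytokine signalling, at 0.113, then Mir6953 at 0.133 and Ifitm1 at 0.160. Ly6a was most like Scimp, Zbp1 and Cfb at 0.181 to 0.191, and Ly6i most like Tgtp1, Gbp6 and Gbp4 at 0.234 to 0.269. Zbp1 is an interferon-induced sensor of nucleic acids, Cfb is complement factor B, and Tgtp1, Gbp6 and Gbp4 are interferon-induced GTPases. These are likenesses over 9 libraries that share their groups and their depth, and no test was attached to them.

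**Figure D4:**
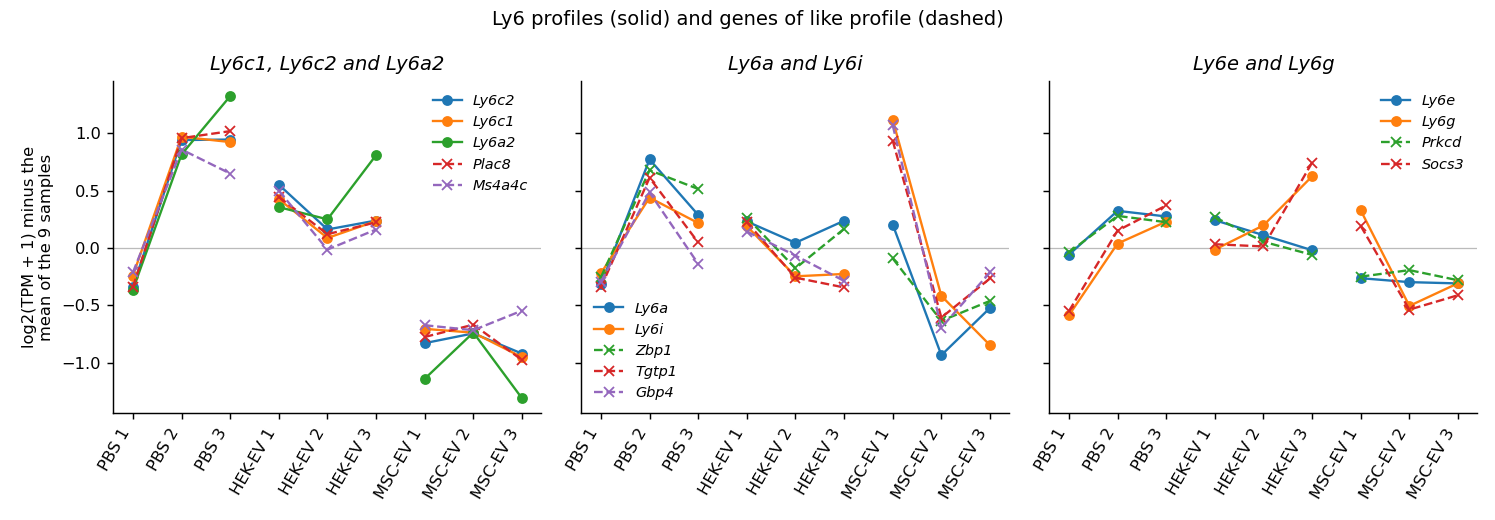
Profiles over the 9 samples of log2(TPM + 1) minus the mean of each gene, Ly6 genes solid and genes of like profile dashed; lines join the samples of a group only to help follow a gene. Ly6c1, Ly6c2 and Plac8 run together with a low PBS replicate 1, while Ly6i, Tgtp1 and Gbp4 peak in MSC-EV replicate 1.

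Of 15 genes of the interferon gamma response, 8 were at their highest of all 9 samples in MSC-EV replicate 1, and 6 were highest in PBS replicate 2. In MSC-EV replicate 1 Cxcl9, a chemokine that interferon gamma induces, was at 115 TPM against 6.61 to 20.5 in the other 8 samples, Nos2 at 11.4 against 0.14 to 0.62, Gbp2 at 196 against 50.9 to 97.3 and Gbp5 at 57.8 against 14.9 to 28.3. Cxcl10, Gbp3, Gbp7, Igtp, Irgm1 and Irgm2 were not highest there. Nor was Ido1, at 0 TPM in that sample and highest in HEK-EV replicate 3, at 0.37 TPM. Of the 7 Ly6 genes, 5 were at their highest MSC-EV level in that sample (Ly6a, Ly6c1, Ly6e, Ly6g and Ly6i), and only Ly6i was there at its highest of all 9. As a list, 13 tested genes of the interferon gamma response had 0 lower and 0 higher in MSC-EV against PBS by limma, and a median of 0.04. An unadjusted p under 0.05 was found for 2, against 3184 of all 13820 genes. Those 2 were Ciita, the activator of MHC class II genes (0.65, adjusted p = 0.0726), and Cxcl9 (1.54, adjusted p = 0.207). The difference of Cxcl9 was 0.67 without MSC-EV replicate 1. Ciita was higher in each MSC-EV sample, at 32.8 to 45.7 TPM, than in any of the other 6, at 19.0 to 29.1. Leaving out PBS replicate 1 gave 1.

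All 24 tested genes of the type I interferon response had lower means in MSC-EV than in PBS, with a median of -0.73. The limma test was passed by 5 as lower, against 3.25% of all genes. They were Ifi27l2a (-0.61, adjusted p = 0.0260), Oas1a (-0.55, 0.0313), Oas3 (-0.99, 0.0348), Mx2 (-0.73, 0.0369) and Oasl1 (-1.01, 0.0424). Oas genes make the signal that activates RNase L, and Mx2 is an antiviral GTPase. Against HEK-EV all 24 means were lower too, with a median of -0.50, and 1 passed, Ifi27l2a (-0.47, adjusted p = 0.0443). In HEK-EV against PBS 0 of the 24 passed in limma and 1 was at an unadjusted p under 0.05, with a median of -0.23. The count of 5 fell to 0 without PBS replicate 2 or 3 or MSC-EV replicate 1 or 2, and rose to 24 without PBS replicate 1. The count of 1 against HEK-EV fell to 0 without any one HEK-EV or MSC-EV sample and rose to 8 without PBS replicate 1. Ly6e and Ly6c2, which interferons can induce, were lower in the same samples, and the part of interferon in their levels was not tested. Of 13 genes of interferon receptors and signalling, 0 passed against PBS, with a median of -0.19. An unadjusted p under 0.05 was found for 8, all lower, against 3184 of all 13820 genes. Nearest were Ifngr1, a chain of the interferon gamma receptor, at -0.41 (adjusted p = 0.0546 in limma), then Irf9 at -0.23 (adjusted p = 0.0692). Without PBS replicate 1, 3 of the 13 passed against PBS. Against HEK-EV 1 of the 13 passed as lower, with a median of -0.23, and 4 passed without PBS replicate 1. That count of 1 fell to 0 without any one HEK-EV sample or without MSC-EV replicate 1 or 2.

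Ly6C marks a monocyte state, so other genes of both monocyte states were set beside it. Of 14 genes of Ly6C-high monocytes, 6 were lower in MSC-EV than in PBS and 0 higher, with a median of -0.78. Over all genes 3.25% were lower and 1.86% higher by that criterion. Plac8 and Ms4a4c, named above for their profiles, are in this list and passed. The 3 of smallest p were Vcan, a matrix proteoglycan (-1.42, SE 0.261, adjusted p = 0.0251), Gda, guanine deaminase (-0.53, SE 0.115, adjusted p = 0.0348), and S100a4 (-0.75, SE 0.162, adjusted p = 0.0350). Against HEK-EV 6 of the 14 were lower, against 4.40% of all genes, with a median of -0.86. Ccr2, the receptor that draws these monocytes into tissue, was at 718 to 843 TPM after PBS and 540 to 727 after MSC-EV, with overlap.

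Of 11 genes of Ly6C-low monocytes, 8 were lower in MSC-EV than in PBS, against 3.25% of all genes, with a median of -0.87. In the comparison with HEK-EV 9 were lower, against 4.40% of all genes, with a median of -0.92. Examples against PBS were Spn, which encodes CD43 (-1.02, SE 0.145, adjusted p = 0.0152), Treml4 (-0.87, SE 0.134, adjusted p = 0.0187) and Eno3 (-1.10, SE 0.173, adjusted p = 0.0197). Both counts against PBS fell to 0 without PBS replicate 2, PBS replicate 3 or MSC-EV replicate 1, and the count of 6 also without MSC-EV replicate 2. Without PBS replicate 1 they were 8 and 10. Both counts against HEK-EV fell to 0 without HEK-EV replicate 1 or 2 or MSC-EV replicate 1 or 2, and the count of 9 also without HEK-EV replicate 3. They rose to 10 and 10 without PBS replicate 1. The acinar term marks 4 libraries, none of them PBS, so it is partly tied to vesicles in comparisons with PBS. With it the number of all genes that passed went from 706 to 21 against PBS and from 817 to 550 against HEK-EV. Both monocyte counts and the type I interferon count against PBS were 0 in that fit, and also without HEK-EV replicate 2 and MSC-EV replicate 3. Against HEK-EV the monocyte counts were 5 and 9 with that term and 0 without that pair.

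Ly6G is a marker of neutrophils. Of 15 tested neutrophil genes, 0 were lower and 1 higher in MSC-EV than in PBS, Ltf, a gene of secondary granules (0.87, SE 0.187, adjusted p = 0.0348), with a median of -0.33. Against HEK-EV 2 passed as lower, Csf3r and Stfa2l1, and 1 as higher, Ltf, with a median of -0.67. In 11 of the 15 the MSC-EV samples lay below all HEK-EV samples, against 17.5% of all genes, and in 2 they lay above. An unadjusted p under 0.05 was found for 14, of which 11 were lower, against 3217 of all 13820 genes. The MSC-EV samples lay below all PBS samples in 1 of the 15 and above in 4. Against PBS 5 were at an unadjusted p under 0.05, of which 2 were lower, against 3184 of all genes. The count of 1 that passed against PBS was 6 without PBS replicate 1. It was 0 without PBS replicate 2 or 3, HEK-EV replicate 2 or any one MSC-EV sample. The count of 3 against HEK-EV was 9 without PBS replicate 1 and 0 without HEK-EV replicate 1 or 2 or MSC-EV replicate 1 or 2. With the acinar term the neutrophil counts were 0 against PBS and 2 against HEK-EV. Both were 0 without HEK-EV replicate 2 and MSC-EV replicate 3 together.

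Endothelium also expresses Ly6a, Ly6c1 and Ly6e. The 16 endothelial genes summed to 498 to 604 TPM after PBS, 318 to 710 after HEK-EV and 212 to 394 after MSC-EV. All 16 had lower means in MSC-EV than in PBS, with a median of -0.79, and 0 passed the limma test. An unadjusted p under 0.05 was found for 16, against 3184 of all 13820 genes. The nearest were Gpr182 (-1.11, adjusted p = 0.0571) and Egfl7 (-1.01, adjusted p = 0.0628). Without HEK-EV replicate 1, 8 of the 16 passed. None of the defining genes was at 0, and the part of endothelial cells in the Ly6 levels was not tested.

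Of 5 tested stem and progenitor genes, which would accompany Sca-1 on such cells, 0 passed in either direction against PBS, with a median of -0.07. An unadjusted p under 0.05 in limma was found for 1, against 3184 of all 13820 genes. The nearest were Flt3 (0.37, adjusted p = 0.198) and Meis1 (-0.20, adjusted p = 0.349); Kit was at 2.97 to 5.55 TPM and Cd34 at 15.9 to 25.0. Of 6 general myeloid genes, 1 was lower against PBS: Ptprc, which encodes CD45 (-0.46, SE 0.0873, adjusted p = 0.0271). Hepatocyte transcripts were higher in the MSC-EV samples, at a sum of 771 to 922 TPM over 16 genes against 508 to 583 in the PBS samples, and 3 of the 16 passed, Apoa1, Cyp2e1 and Trf, against 0 lower. Without PBS replicate 2 or 3 or MSC-EV replicate 1 or 2 the counts of Ptprc and of hepatocyte genes were 0, and that of Ptprc also without MSC-EV replicate 3. Without PBS replicate 1 or HEK-EV replicate 3 the myeloid count was 2, and without HEK-EV replicate 1 the hepatocyte count was 6. With the acinar term both counts against PBS were 0. Against HEK-EV 6 hepatocyte genes and 2 myeloid genes passed, and the same numbers passed with that term, but 0 and 0 without HEK-EV replicate 2 and MSC-EV replicate 3 together. Both were also 0 without HEK-EV replicate 1, HEK-EV replicate 2, MSC-EV replicate 1 or MSC-EV replicate 2 alone, and the myeloid count without HEK-EV replicate 3. The 6 myeloid genes summed to 18979 to 20538 TPM after PBS and 15696 to 20863 after MSC-EV, which overlapped. Most of that sum was Lyz2, at 13329 to 18741 TPM over all samples. In 3 of the 6 the MSC-EV samples lay below all PBS samples, as they did for 14.9% of all genes. In limma 3 of the 6 were at an unadjusted p under 0.05 against PBS, all lower, against 3184 of all 13820 genes. Of 9 Kupffer cell genes, 9 had lower means in MSC-EV than in PBS, with a median of -0.45, and 0 passed by limma. An unadjusted p under 0.05 was found for 2, against 3184 of all 13820 genes. These were Timd4 (-0.79, adjusted p = 0.123) and Clec4f (-0.83, adjusted p = 0.130). Sums of the 9 genes were 3012 to 3682 TPM after PBS, 2142 to 4241 after HEK-EV and 1735 to 2987 after MSC-EV. Of 7 T and NK cell genes, 6 had higher means than in PBS, with a median of 0.48, and 1 passed, Nkg7, a gene of cytotoxic granules (0.70, SE 0.162, adjusted p = 0.0424 in limma); that count was 0 without any one sample. The part of hepatocyte, Kupffer, T and NK cell transcripts in the Ly6 levels was not tested. Ly6c2 relative to Ly6e, a ratio taken within a sample, was 0.406 ± 0.132 in PBS, 0.356 ± 0.033 in HEK-EV and 0.212 ± 0.013 in MSC-EV (SD, n = 3), below all other samples in the MSC-EV group, where PBS replicate 1 at 0.253 was the nearest.

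**Figure D5:**
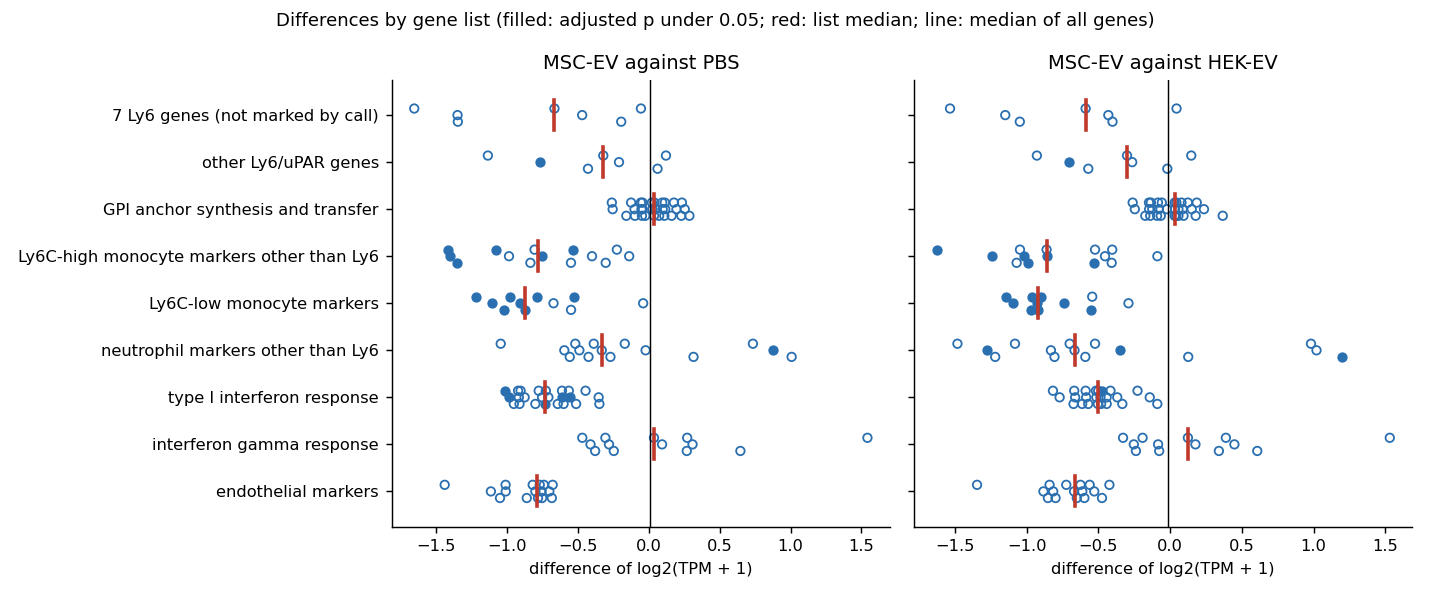
Differences of log2(TPM + 1) of MSC-EV against PBS and against HEK-EV for the 7 Ly6 genes and 8 lists; each circle is a gene, filled where the adjusted p of limma was under 0.05 (not marked for the 7 Ly6 genes), red marks are list medians and the vertical line is the median of all genes. Both monocyte lists and the type I interferon list lie to the left of 0, with medians against PBS of -0.78, -0.87 and -0.73, and genes of GPI anchor synthesis lie around it at 0.04.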

How the data were processed

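RNA of CD11b+ liver cells was extracted with Trizol and sequenced from TruSeq Stranded mRNA libraries, per the labels' protocols, in 9 samples grouped by the treatment in their labels. HISAT2 2.1.0, StringTie and mm10 are named in the submitters' processing notes; their settings, the handling of multiply mapped reads and the read length are not given in the sources used here. Per the file headers, each table gives coverage (mean read signal per gene), FPKM and TPM as deposited by the authors. Gene IDs were matched to RefSeq GRCm38.p6 (45679 of 45777 had a symbol; 96.4% had its coordinates).

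Rows of an ID were summed. log2(TPM + 1) of the 13820 genes that reached 1 TPM in 3 samples or more was fitted with limma 3.58.1 (R 4.3.3; all 9 samples in 1 fit, variance trend, Benjamini-Hochberg adjustment, two-sided, threshold 0.05). The test was tested on simulated data. The members and lists were chosen with earlier results of these data known. Named were all 7 members, the 3 genes nearest in profile to each (mean of at least 5 TPM), and for each list up to 3 genes of smallest p, or 2 given by value where none passed (lists described in the text). Mx2, Oasl1, Csf3r, Stfa2l1, Cxcr2, S100a8, Camp, Mpo, Elane, Lcn2, Mmp8, Mmp9, Ngp, Ccr2, Gpihbp1, Ly6d, Plaur, Kit, Cd34, Nos2 and the other interferon gamma genes except Cxcl9 and Ciita fall outside that rule, having been chosen once their values had been seen. Transcripts were compared by Biopython 1.88 local alignment. Alternatives were another pseudocount, filters, FPKM, median-of-ratios scaling, no trend, depth or acinar terms, a replicate block, 6-sample fits, summed relatives and leaving out each sample. Removing both acinar-rich libraries was added after the data were seen.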

Additional observations from a re-analysis of the deposited data

How the results depend on the processing

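The signs of Ly6a, Ly6a2, Ly6c1, Ly6c2 and Ly6e stayed below 0 in both comparisons of MSC-EV under all alternatives run; those of Ly6i and Ly6g did not in both. The number of the 7 genes passing against PBS, 4 in the main analysis, was 0 with no filter, 2 with FPKM, 2 with median-of-ratios scaling, 1 with no variance trend, 0 with the acinar split (4 libraries) as a term, 0 with only the 6 samples compared, 0 without the 2 acinar-rich libraries, and 0 to 4 leaving out one sample. Against HEK-EV the number, 1, was 0 with no filter, with FPKM, with median-of-ratios scaling, with no variance trend and without the acinar-rich libraries, 4 with a minimum of 5 TPM, 4 with depth as a covariate, 4 with only the 6 samples compared, and 0 to 4 leaving out one sample. HEK-EV against PBS stayed at 0. The 1 other Ly6/uPAR gene against PBS was 0 with no filter, 0 with the acinar term, 0 with 6 samples, 0 without the acinar-rich libraries, and 0 to 2 leaving out one sample. The causes were not tested, except that fewer samples, or more genes tested, are part of some alternatives by construction. The acinar term marks no PBS library, so against PBS it is partly tied to the groups.

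Samples of equal number share a number, and whether they were handled together is not known. Correlations of their deviations from group means ran from -0.499 to 0.058, which cannot settle it with 3 samples per group. The highest correlation between groups, 0.547, joined HEK-EV replicate 2 and MSC-EV replicate 3, the acinar-rich libraries. With the replicate block 1 of the 7 passed against PBS, 0 against HEK-EV and 0 for HEK-EV against PBS. Of the other Ly6/uPAR genes 1 passed against PBS. Among the lists the block took the type I interferon count from 5 to 0 against PBS and from 1 to 0 against HEK-EV, the hepatocyte count from 3 to 0 and from 6 to 1, the T and NK count from 1 to 0 in both, and the count of interferon receptors and signalling against HEK-EV from 1 to 0; it took the interferon gamma count from 0 to 1 in both, the endothelial count against PBS from 0 to 1 and the neutrophil count against HEK-EV from 3 to 5. Those of both monocyte lists were 6 and 9 against PBS, and 7 and 9 against HEK-EV. Over all genes the calls were 404 with the block against 706 for MSC-EV against PBS, and 448 against 817 for MSC-EV against HEK-EV. Over all genes the calls against PBS ranged from 0 without the acinar-rich libraries, or 5 without PBS replicate 2, to 1881 without PBS replicate 1, and those against HEK-EV from 0 without the acinar-rich libraries, HEK-EV replicate 2 or MSC-EV replicate 1 or 2 to 1446 with depth as a covariate. Depth in reads is unknown, so the precision of Ly6g at 1.38 to 4.50 TPM is unknown too.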
